A study of Mus musculus with 18 samples.

Results

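The interleukin 1 and interleukin 36 family was followed here through 9 genes of mouse skin: Il1a, Il1b, Il1rn, Il36a, Il36b, Il36g, Il36rn, Il18 and Il33. They were chosen by name, with earlier results of these data known, and all 9 were found among the 27743 genes of the deposited table. All 9 passed the filter on low values, an FPKM (a fragment count corrected for gene length and library depth) of at least 1 in at least 3 of 18 libraries, which 13078 genes passed. The 6 groups of 3 libraries were Control, in which the raised skin flap received no further treatment, and D15L100, D15L150, D15L200, D100L150 and D150L150, in which a printed mesh spacer lay beneath the flap. Skin was collected at day 7. The spacers differed in diameter and spacing, but the labels do not say which number stands for which or give a unit. The sources used here give no strain, sex or age of the mice. All groups share the flap operation, and none is unoperated skin. Since no label ties a library to an animal, the p-values describe library-to-library spread only, which may be technical.

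Members of this family are alarm signals of skin. The agonists Il1a and Il1b bind the interleukin 1 receptor, Il36a, Il36b and Il36g bind the interleukin 36 receptor, and Il18 and Il33 each have a receptor of their own, all signalling through Myd88 to NF-kB. The antagonists Il1rn and Il36rn occupy the interleukin 1 and interleukin 36 receptors without signalling. Il1b is made chiefly by neutrophils and macrophages as a precursor that caspase 1 cleaves. The interleukin 36 genes and Il1a are expressed by keratinocytes, Il18 is stored in epidermis as a precursor, Il33 is a nuclear protein of stromal, endothelial and epidermal cells released on damage, and Il1rn is made by both keratinocytes and myeloid cells.

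On GRCm38 (GENCODE M21), 5 members lie within 198 kb of chromosome 2, from 24153161 to 24351494, all on the plus strand and in the order Il36b, Il36g, Il36a, Il36rn and Il1rn. Il1a (129299610 to 129309972) and Il1b (129364570 to 129371139) lie further along chromosome 2 on the minus strand. Il18 is on chromosome 9 (50554827 to 50581840) and Il33 on chromosome 19 (29925114 to 29960718), both on the plus strand. The antisense gene Il1bos overlaps Il1b by 1.24 kb, and the sources used here do not say whether counting used strand, so fragments of the overlap cannot be assigned with certainty. Il1bos held 0.188 to 2.95 FPKM, against 19.98 to 689.7 for Il1b.

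Promoter sequence, the 250 bases before a RefSeq start site, was found for 8 of the 9 members (RefSeq, GRCm38.p6), all but Il36a. Windows of 5 members that fall into separate groups of covarying genes below are printed 5′ to 3′ on the strand of the gene, with capitals marking matches to the AP-1 motif TGANTCA or the TATA box TATAAA, each searched on both strands.
Il1a, chr2:129309973-129310222: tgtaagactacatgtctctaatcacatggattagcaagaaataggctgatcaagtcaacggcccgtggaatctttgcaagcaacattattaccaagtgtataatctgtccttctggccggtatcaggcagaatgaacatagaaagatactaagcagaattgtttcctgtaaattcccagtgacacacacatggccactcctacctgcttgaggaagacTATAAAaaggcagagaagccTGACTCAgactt
Il1b, chr2:129371140-129371389: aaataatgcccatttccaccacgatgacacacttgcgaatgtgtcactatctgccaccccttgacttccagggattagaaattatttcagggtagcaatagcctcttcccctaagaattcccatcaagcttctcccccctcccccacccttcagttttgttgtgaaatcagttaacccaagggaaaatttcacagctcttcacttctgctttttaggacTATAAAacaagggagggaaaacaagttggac
Il1rn, chr2:24336610-24336859: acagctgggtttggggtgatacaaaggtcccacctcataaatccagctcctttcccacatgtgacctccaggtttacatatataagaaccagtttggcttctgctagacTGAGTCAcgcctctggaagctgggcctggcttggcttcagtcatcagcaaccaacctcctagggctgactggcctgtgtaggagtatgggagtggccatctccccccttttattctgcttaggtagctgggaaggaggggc
Il36b, chr2:24152922-24153171: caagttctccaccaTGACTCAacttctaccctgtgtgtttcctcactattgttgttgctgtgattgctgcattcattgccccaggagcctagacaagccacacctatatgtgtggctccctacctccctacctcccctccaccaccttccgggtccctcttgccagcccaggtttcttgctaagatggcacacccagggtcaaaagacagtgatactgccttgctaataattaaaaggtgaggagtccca
Il36rn, chr2:24276704-24276953: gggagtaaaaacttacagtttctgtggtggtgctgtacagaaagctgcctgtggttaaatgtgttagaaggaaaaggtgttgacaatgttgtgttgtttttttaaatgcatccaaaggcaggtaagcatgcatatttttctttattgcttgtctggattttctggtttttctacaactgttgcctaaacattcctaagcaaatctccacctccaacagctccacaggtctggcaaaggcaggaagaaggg

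Il1a held a TATA box at -32 to -27 bases from the start site and an AP-1 match at -12 to -6, and Il1b held a TATA box at -31 to -26. Il1rn and Il36b each held an AP-1 match, at -141 to -135 and at -236 to -230. The Il1rn match lay in the printed window, and its windows at other start sites, not printed, held none. The windows of Il36rn, 1 of them printed, and of Il36g, not printed, held no match to either motif. Il18 held a TATA match on the opposite strand at -175 to -170, and Il33 held one at -203 to -198 in the window of its first start site and one at -29 to -24 in that of the second. An NF-kB motif, also searched, matched in no member window. Over 27025 promoters of the same length, 1 for each gene, 6.87% held the AP-1 motif, 12.97% the TATA box and 7.01% the NF-kB motif. Members with several start sites had more than 1 window searched. These are matches of letters, with no measurement of binding.

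Depth was similar across the series, at 28122056 to 34881279 fragments recovered per library, and 11778 to 12488 genes reached 1 FPKM. Mitochondrially encoded genes took 12.5, 10.7 and 7.40% of the summed FPKM in the Control libraries, 5.18 to 9.09% in D15L100, 4.41 to 5.60% in D15L150, 3.37 to 4.71% in D15L200, 3.73 to 6.64% in D100L150 and 3.35 to 4.41% in D150L150. All spacer groups but D15L100 thus lay below Control. With libraries scaled without these genes, the number of members called was the same in every comparison with Control, and any other part of this share in the results was not tested. Control 1 stood apart in markers of the outer epidermis: the summed FPKM of 12 suprabasal keratinocyte genes was 257 there, 1250 and 1430 in the other Control libraries, and 1376 to 7458 in the spacer libraries. With Control 1 left out, limma called no gene in the spacer mean and none in any single group against Control, except 2 genes in D150L150. Keratinocyte markers (Krt14 at 788 to 4651 FPKM) and skeletal muscle markers (summed FPKM of 1932 to 18462, with a median difference of -0.88 in the spacer mean and no gene called) were both present, so the tissue labelled skin also held muscle. In bulk tissue, fewer cells of a type and less RNA per cell cannot be told apart.

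Against Control, flaps over spacers held more RNA of the interleukin 36 antagonist Il36rn and of the agonist Il36b, and no member passed the test for a lower level. In the mean of the 5 spacer groups, 2 of 9 members were called higher and none lower (limma, adjusted p under 0.05 over all genes), where 3.56% of all genes tested were called, 2.84% higher and 0.726% lower. Of the 9, 6 lay above Control and 3 below, with a median difference of 1.30 on the log2(FPKM + 1) scale, against -0.04 over all genes. The members above Control were the interleukin 36 genes, Il18 and Il33, and those below were Il1a, Il1b and Il1rn. All comparisons with Control share its 3 libraries, and both calls were lost without Control 1. Below, spacer libraries above all Control libraries are given by member, and how many of all genes showed such separation was not counted.

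**Figure D1:**
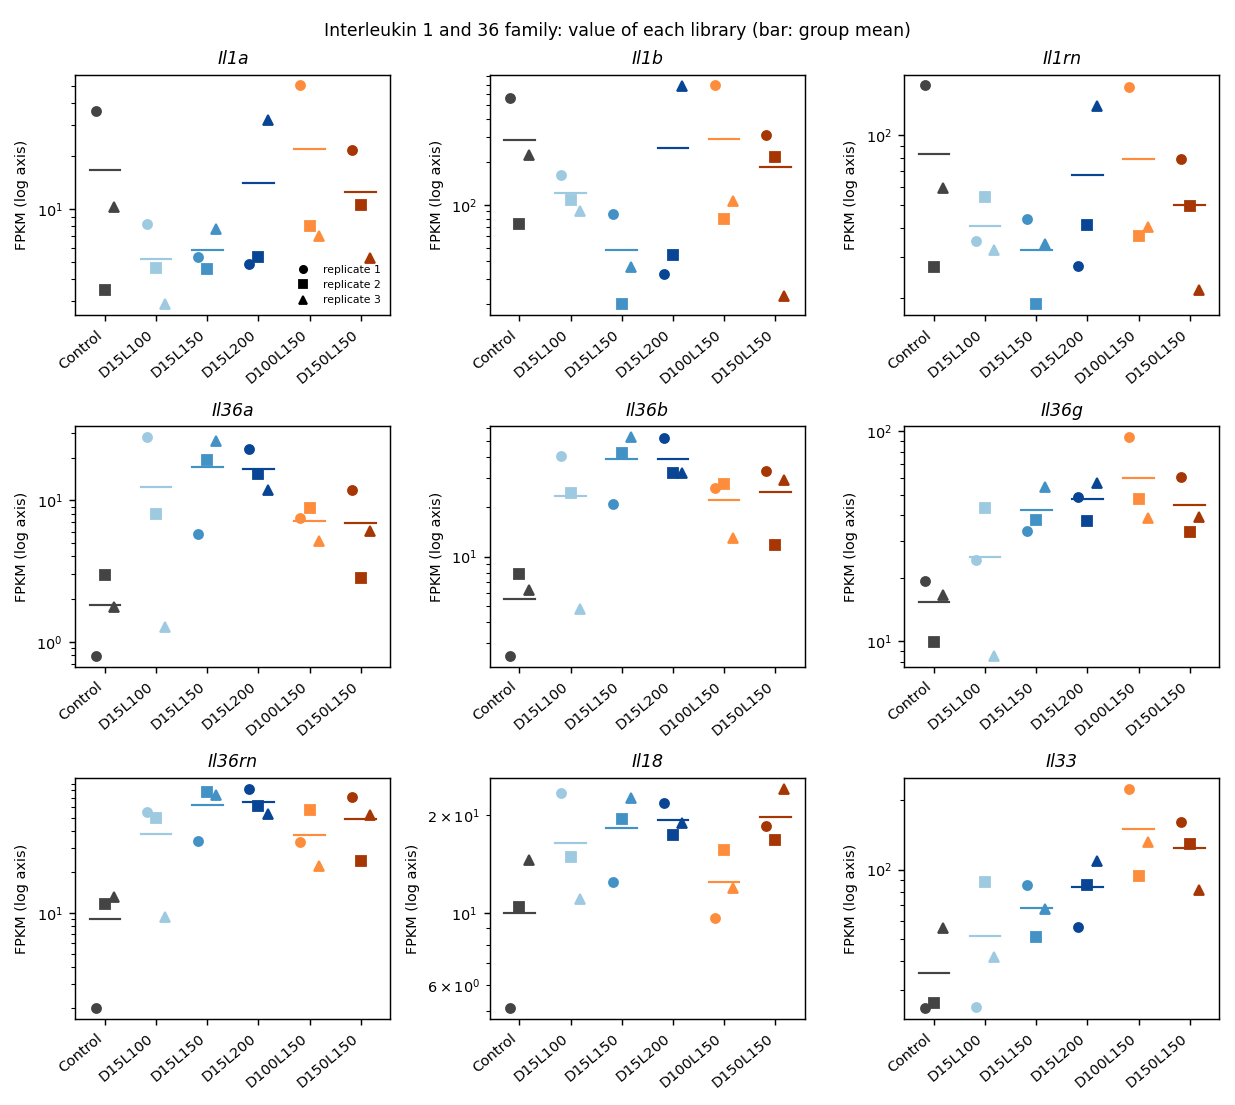
FPKM of each of the 9 members (log axes) in the 18 libraries by group, with point shapes for replicate numbers and bars for group means. Il36rn and Il36b lie above every Control library in 14 of 15 spacer libraries, while Il1a, Il1b and Il1rn overlap between all spacer groups and Control. The share of all genes with such separation was not counted.

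Il36rn, which blocks the interleukin 36 receptor, lay at 1.99, 11.7 and 13.2 FPKM in the Control libraries. It lay at 55.1, 49.7 and 9.36 FPKM in D15L100, at 34.2, 78.3 and 74.7 in D15L150 and at 81.7, 61.6 and 53.4 in D15L200. In D100L150 it lay at 33.6, 57.5 and 22.1 FPKM, and in D150L150 at 71.3, 24.3 and 52.9. Every spacer library but D15L100 3 lay above the highest Control library, and Control 1 was the lowest of all. The mean of the spacer groups was higher than Control by 2.49 ± 0.54 (log2 difference ± SE, limma adjusted p = 0.0241), and by 1.77 with an adjusted p of 0.270 without Control 1. The call was also lost with voom on recovered fragments (2.70, adjusted p = 0.0537), without the filter on low values (adjusted p = 0.0511) and with the muscle marker level as a covariate (2.32, adjusted p = 0.0581).

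Il36b, an agonist of the same receptor, lay at 2.495, 7.79 and 6.29 FPKM in Control. Its values were 40.7, 24.2 and 4.81 FPKM in D15L100, 20.9, 42.6 and 52.8 in D15L150 and 52.2, 32.15 and 32.3 in D15L200. In D100L150 they were 25.9, 27.6 and 13.02 FPKM, and in D150L150 32.8, 11.8 and 29.2. As for Il36rn, only D15L100 3 overlapped Control. The difference of the spacer mean was 2.14 ± 0.49 (limma adjusted p = 0.0306), and 1.74 with an adjusted p of 0.306 without Control 1. The call was also lost without Control 2 (adjusted p = 0.0519), Control 3 (0.0602) or D15L200 1 (0.0506), and with voom (0.114).

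The other agonists of this receptor did not pass the test. Il36g, the most abundant of them in 15 of 18 libraries, lay at 19.5, 9.91 and 16.7 FPKM in Control, and its spacer libraries ran from 8.51 to 93.7 with a median of 39.2. Of 15 spacer libraries 14 lay above the highest Control library, and D15L100 3 lay below the lowest. The log2 difference of the spacer mean was 1.36 ± 0.37 (limma adjusted p = 0.0561). Il36a lay at 0.792, 2.94 and 1.76 FPKM in Control, where the first value rests on 22 fragments, and at 1.27 to 27.8 FPKM in the spacer libraries. Its difference was 1.96 ± 0.58 (limma adjusted p = 0.0745), with 13 of 15 spacer libraries above the highest Control library.

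Il33, the nuclear alarm protein, lay at 25.0, 26.4 and 55.5 FPKM in Control. It lay at 25.3, 88.1 and 41.6 FPKM in D15L100, 86.0, 50.7 and 67.2 in D15L150 and 56.2, 85.3 and 109 in D15L200. In D100L150 it lay at 224, 93.7 and 132 FPKM and in D150L150 at 161, 129 and 81.8. All libraries of D15L200, D100L150 and D150L150 lay above all Control libraries, and those of D15L100 and D15L150 overlapped Control. The share of all genes with such separation from Control was not counted. The spacer mean differed by 1.30 ± 0.36 (limma adjusted p = 0.0594). Il18, whose precursor is stored in keratinocytes, had the narrowest range of the 9 members, 5.10 to 24.1 FPKM, and a difference of 0.78 ± 0.26 (limma adjusted p = 0.0985).

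The interleukin 1 genes varied widely within groups. Il1b lay at 564, 72.9 and 223 FPKM in Control. It lay at 163, 108 and 90.4 FPKM in D15L100, at 86.7, 20.0 and 36.4 in D15L150 and at 32.7, 44.3 and 678 in D15L200. In D100L150 it lay at 690, 79.8 and 106 FPKM and in D150L150 at 310, 216 and 22.8. The 3 highest values belonged to 3 different groups, one of them Control. The spacer mean differed by -1.06 ± 0.95 (limma adjusted p = 0.534), with a 95% interval from -3.11 to 0.98 that holds large differences in either direction.

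Il1rn, the antagonist of Il1a and Il1b, lay at 163, 27.2 and 59.2 FPKM in Control and at 18.8 to 161 FPKM in the spacer libraries, none of which exceeded the highest Control library. Its spacer mean differed by -0.52 ± 0.57 (limma adjusted p = 0.622). Il1a lay at 36.1, 3.47 and 10.3 FPKM in Control and at 2.88 to 50.4 in the spacer libraries, with a difference of -0.37 ± 0.67 (limma adjusted p = 0.775). Both differences turned positive without Control 1, to 0.15 for Il1rn and 0.42 for Il1a.

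In each spacer group the 4 interleukin 36 genes, Il18 and Il33 lay above Control on the log2 scale. In D15L200, 1 of 9 members was called, Il36rn at 3.01 ± 0.69 (limma adjusted p = 0.0462), where 1.56% of all genes were called, 1.43% higher and 0.13% lower. Il36b followed at 2.68 ± 0.63 (limma adjusted p = 0.0513). In D100L150 the 1 member called was Il33 at 2.04 ± 0.46 (limma adjusted p = 0.0459), where 1.38% of all genes were called, 1.06% higher and 0.321% lower, and Il36g differed by 1.85 ± 0.47 (adjusted p = 0.0640). Without Control 1 the adjusted p was 0.251 for Il36rn and 0.181 for Il33, and without D100L150 1 it was 0.249 for Il33. With voom on recovered fragments neither was called (adjusted p = 0.0836 for Il36rn and 0.0614 for Il33). The Il36rn call held in 4 of 18 fits that left out 1 library, those without D15L100 2, D15L100 3, D15L150 1 or D15L150 3. The Il33 call held in 5 of 18, those without Control 3, D15L100 1, D15L100 2, D15L150 3 or D100L150 2. A call in one spacer group and not in another does not show that the groups differ.

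In D150L150 no member was called by limma or by voom on recovered fragments, and 2.42% of all genes were called, 2.03% higher and 0.398% lower. An unadjusted limma p under 0.05 was found for 5 of 9 members and 20.4% of all genes. Il33 differed there by 1.81 ± 0.46 (limma adjusted p = 0.0538) and Il36rn by 2.51 ± 0.69 (adjusted p = 0.0701). In D15L150 no member was called by either tool and 0% of all genes were called, while 5 members and 19.8% of all genes had an unadjusted p under 0.05. Il36rn and Il36b differed by 2.87 ± 0.69 and 2.61 ± 0.63, each with a limma adjusted p of 0.0687. In D15L100 no member was called by either tool and 0% of all genes were called, while 3 members and 3.3% of all genes had an unadjusted p under 0.05. Its differences were 1.93 ± 0.69 for Il36rn, 1.59 ± 0.63 for Il36b and 0.44 ± 0.46 for Il33.

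**Figure D2:**
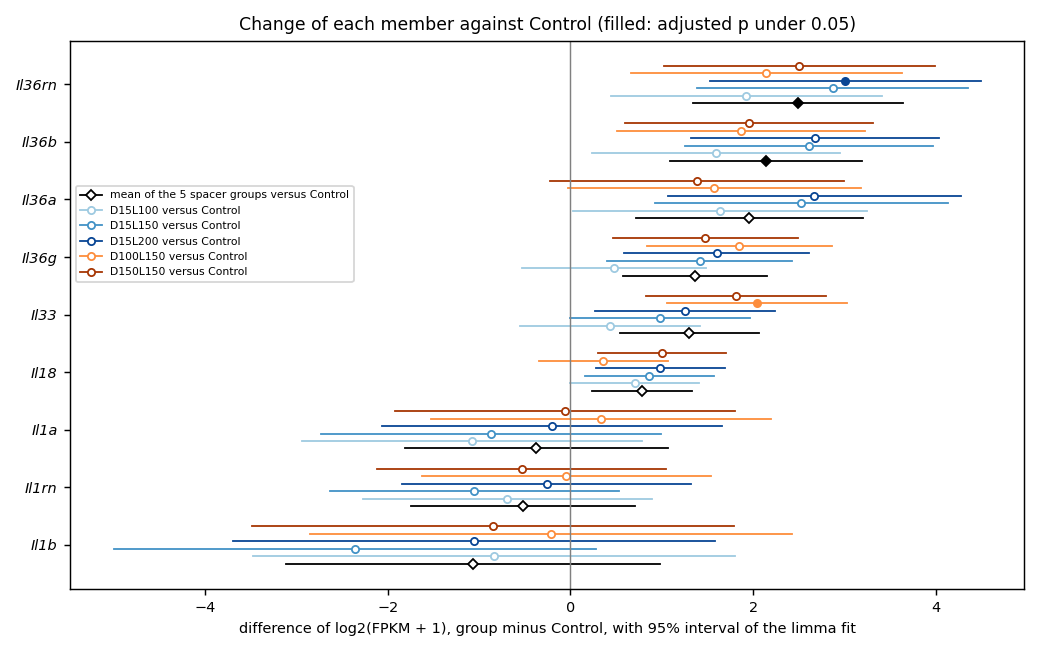
Difference of log2(FPKM + 1) from Control (horizontal axis) for the 9 members (vertical axis), with circles for each spacer group, diamonds for the mean of the 5 groups, and lines for 95% intervals of the limma fit. Filled symbols passed an adjusted p of 0.05: Il36rn and Il36b in the mean, Il36rn in D15L200 and Il33 in D100L150.

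Between spacer groups, no member and 0% of the 13078 genes were called in any of the 6 pairwise comparisons or in either F test over 3 groups, by limma or voom. Among groups that share D15, the difference of Il36g between D15L200 and D15L100 was 1.13 ± 0.47 (limma adjusted p = 0.849). Among groups that share L150, the group means of Il33 were 68.0 ± 17.7 FPKM in D15L150, 150 ± 66.8 in D100L150 and 124 ± 39.6 in D150L150 (SD, n = 3 each). D100L150 differed from D15L150 by 1.07 ± 0.46 for Il33 (limma adjusted p = 0.430), and D150L150 from D15L150 by 0.83 ± 0.46 (adjusted p = 0.890). The Il33 ranges of D100L150 and D15L150 did not overlap, and those of D150L150 and D15L150 did. How many of all genes lacked overlap was not counted. In D100L150 against D15L150 an unadjusted limma p under 0.05 was found for 1 of 9 members and 11.4% of all genes.

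Agonists and antagonists were compared as ratios within each library, given without a test because the members were chosen with earlier results known. Il1rn was below the sum of Il1a and Il1b in every library, at 0.19 to 0.83 of it with a median of 0.36. The ratio was 0.27, 0.36 and 0.25 in Control, 0.21, 0.48 and 0.34 in D15L100, 0.48, 0.77 and 0.77 in D15L150 and 0.74, 0.83 and 0.19 in D15L200. It was 0.22, 0.42 and 0.36 in D100L150 and 0.24, 0.22 and 0.77 in D150L150. All D15L150 libraries lay above all Control libraries, and D15L200 held both the lowest and the highest value of the series, the lowest in the library with the second highest Il1b. In the other spacer groups values lay on both sides of the Control range. D15L150 had the lowest group mean of both Il1b, 47.7 FPKM, and Il1rn, 32.2 FPKM. Against Il1a alone D15L150 (8.17, 4.14 and 4.40) overlapped Control (4.53, 7.83 and 5.76). Il36rn was 0.09 to 0.78 of the sum of Il36a, Il36b and Il36g, with a median of 0.58. Control 1 had the lowest ratio, 0.09, and the other Control libraries, at 0.57 and 0.53, lay inside the range of the spacer libraries, 0.26 to 0.78. The summed agonists were 20.6 to 24.7 FPKM in Control and 14.6 to 134 in the spacer libraries, of which Il36a and Il36b together made up 14.4 to 73.8% over all libraries.

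**Figure D3:**
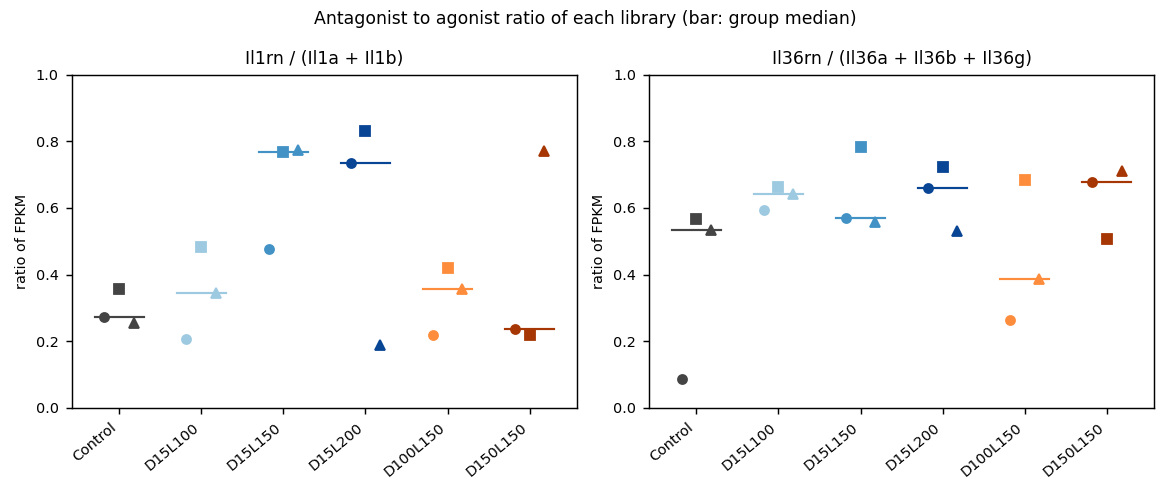
Ratio of antagonist to summed agonist FPKM (vertical axes) in each library by group, for interleukin 1 on the left and interleukin 36 on the right, with point shapes for replicate numbers and bars for group medians. Control 1 has the lowest interleukin 36 ratio, 0.09, and all D15L150 libraries exceed all Control libraries in the interleukin 1 ratio. D15L150 also has the lowest group means of Il1b and of Il1rn.

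Across the 18 libraries most of the members fell into groups that varied together. These correlations of log2(FPKM + 1) are descriptions, over points that share library, depth and group. Il1b, Il1rn and Il1a varied together (Pearson r of 0.92 for Il1b with Il1rn, 0.91 for Il1a with Il1rn and 0.84 for Il1a with Il1b). Il36a, Il36b and Il36rn formed the second group, with r of 0.96 for Il36a with Il36b and 0.97 for Il36b with Il36rn, and Il18 had an r of 0.86 with Il36rn. Il36g and Il33 had an r of 0.76 with each other, and Il36g had 0.73 with Il36b, 0.69 with Il36rn and 0.62 with Il36a. After group means were taken out, r was 0.44 for Il36g with Il33, 0.58 for Il36g with Il36b and 0.64 for Il36g with Il1a. Il36g and Il33 thus formed no clearly separate group. Between the interleukin 1 genes and the second group r was low or negative, at -0.43 for Il1b with Il36rn. Il36rn and Il1rn, which lie next to each other among the members on chromosome 2, had an r of -0.36.

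The members varied with marker lists of cell types, and several followed more than 1 list. Blood endothelial markers had an r of 0.80 with Il1b and -0.79 with Il36rn. Mast cell markers had an r of 0.73 with Il36rn. Il18 had an r of 0.76 with the Langerhans and dendritic markers and 0.75 with the T cell markers. Il1b had an r of 0.92 with the level of 14 neutrophil markers, and 0.98 after group means were taken out, but 0.16 with the macrophage and monocyte markers, whose median difference in the spacer mean was 0.25 with none of 14 called. The neutrophil marker sum was 1062 to 6361 FPKM in Control, 1183 to 2675 in D15L100, 837 to 1590 in D15L150 and 1086 to 8801 in D15L200. In D100L150 it was 2273 to 10363 FPKM and in D150L150 1380 to 5432. None of the 10 neutrophil markers tested was called in the spacer mean, and the granule genes Ngp (0 to 1.91 FPKM), Camp (0 to 0.725) and Mpo (0 to 0.204) were at or near 0 while S100a8 lay at 417 to 3650 FPKM. Il1rn and Il1a each had an r of 0.92 with the same markers, although keratinocytes also express both. The part of neutrophil number in these levels was not tested.

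Il36rn had an r of 0.98 with the level of the 12 suprabasal keratinocyte markers, Il36b 0.95, Il18 0.90 and Il36a 0.89. After group means were taken out these r values were 0.97, 0.88, 0.89 and 0.79. The sum of those markers was 257 to 1430 FPKM in Control, 1376 to 4522 in D15L100, 2876 to 7458 in D15L150 and 4959 to 7065 in D15L200. In D100L150 it was 1449 to 3601 FPKM and in D150L150 2392 to 4212. Of the 12 suprabasal markers 6 were called higher in the spacer mean, with a median difference of 2.19. Il36g had an r of 0.92 and Il33 of 0.86 with the wound-activated keratinocyte markers. The wound-activated sum was 1038 to 2054 FPKM in Control, 1780 to 4614 in D15L100, 3534 to 6982 in D15L150 and 5479 to 9174 in D15L200. In D100L150 it was 7535 to 12043 FPKM and in D150L150 7532 to 8650. All 9 of the wound-activated markers tested were called higher in the spacer mean. After group means were taken out r was 0.89 for Il36g and 0.57 for Il33, whose r with the macrophage markers was then 0.60 and with the receptors and decoys 0.79. The 10 basal keratinocyte markers had a median difference of 0.84, and Krt14 was called higher. With their level as a covariate, the differences of Il36rn and Il36b were 1.62 and 1.56, and neither was called. The limma adjusted p was 0.9996 for each, while the unadjusted limma p was 0.0241 for Il36rn and 0.0268 for Il36b. With the neutrophil level as a covariate, 5 members were called. Higher were Il36rn, Il36b, Il36g (1.41, limma adjusted p = 0.0273) and Il33 (1.35, adjusted p = 0.0261). Il1b was called lower relative to that level (-0.84, limma adjusted p = 0.0255). The neutrophil markers had an r of 0.92 with Il1b, which was not called without the covariate (-1.06, limma adjusted p = 0.534). The share of all genes called in either covariate fit is not given here.

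**Figure D4:**
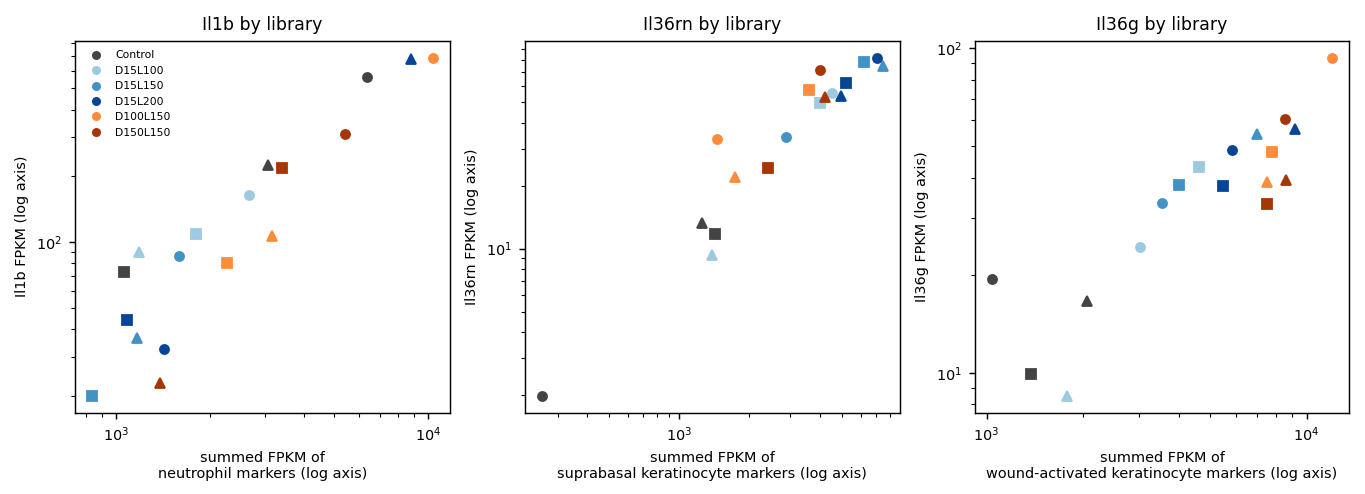
FPKM of Il1b, Il36rn and Il36g (vertical log axes) against the summed FPKM of neutrophil, suprabasal keratinocyte and wound-activated keratinocyte markers (horizontal log axes), 1 point per library, colours for groups and shapes for replicate numbers. High Il1b occurs in libraries of Control, D15L200 and D100L150, and Control 1 is the lowest point for Il36rn.

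The genes most like each member, by Pearson r over the 18 libraries, differed between these groups. Nearest to Il1b were Stfa2l1 (0.988), the chemokine genes Ccl4 (0.985) and Cxcl2 (0.985), the histamine-forming enzyme Hdc (0.983) and Osm (0.979). Nearest to Il1rn was Nlrp3 (0.963), the sensor of the inflammasome that activates caspase 1, and nearest to Il1a was Hcar2 (0.959). Il36rn was nearest to Nccrp1 (0.990), Kprp (0.986) and the epidermal protease Klk5 (0.985). Il36g was nearest to Glrx (0.964) and the cornified envelope enzyme Tgm1 (0.947), Il18 to Them5 (0.932) and Krtdap (0.932), and Il33 to Ap1g1 (0.974) and Bmp2k (0.971). Stfa2l1 is also among the neutrophil markers and Krtdap among the suprabasal ones.

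The receptors showed no call. Of 10 receptors and decoys 9 were tested, and none passed in the spacer mean, where the median difference was 0.07. The interleukin 36 receptor Il1rl2 lay at 6.36 to 26.6 FPKM and differed by 0.57 ± 0.21 (limma adjusted p = 0.142). The signalling receptor Il1r1 lay at 10.4 to 31.1 FPKM and the decoy Il1r2 at 10.3 to 72.4. Sigirr, an inhibitory receptor of the family, had the smallest p of the list, with a difference of -0.52 ± 0.15 (limma adjusted p = 0.0742).

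Among 12 tested of 17 genes of the inflammasome and cytokine processing, Gsdma was called higher in the spacer mean (2.27 ± 0.46, limma adjusted p = 0.0189) and none lower, with a list median of 0.06. Gsdma encodes an epidermal gasdermin, a pore-forming protein. It was also called in D15L200 (2.73 ± 0.59, limma adjusted p = 0.0375). All 17 signalling genes were tested and none was called in the spacer mean, with a median of 0.09. Tollip, an adaptor that restrains this signalling, came closest (0.43 ± 0.11, limma adjusted p = 0.0543). As for the members, none of these calls held without Control 1.

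Of 25 genes known to be induced by these cytokines 21 were tested, and none was called in the spacer mean, where the median was 0.00. Defb4, a beta-defensin of stimulated keratinocytes, lay at 0.132 to 0.416 FPKM in Control and at 2.23 to 5.79 FPKM in D100L150, with 2 to 6 fragments behind each Control value. Every Control value lay below the 1 FPKM of the filter, so Defb4 entered the test through its spacer libraries alone. The difference was 1.72 ± 0.40 (limma adjusted p = 0.0498), the 1 call of the list in that comparison. It was not called without Control 1. The defensin Defb3 and the chemokine Ccl20 differed in the spacer mean by 1.08 and 1.31 and were not called.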

How the data were processed

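RNA was measured in 18 libraries of mouse skin flaps, extracted with TRIzol and prepared with a VAHTS Universal V6 kit, per the labels' protocols. The authors deposited FPKM values. Tools listed in the submitters' processing notes are DESeq2, R 3.2.0, HTSeq, HISAT2 and fastp, with the mm10 build and no role for each. Annotation and strand setting: not given in the sources used here. Deposited values were whole multiples of 1 fragment for 27742 of 27743 genes (relative tolerance 1e-07), from which fragments per library were recovered.

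Values were transformed to log2(FPKM + 1), which understates changes of low genes. Genes with at least 1 FPKM in at least 3 libraries were kept, which left 13078 and removed 14665. A limma 3.58.1 model (R 4.3.3) with 1 mean per group over all libraries, moderated with trend and robust estimation, gave p-values adjusted by Benjamini-Hochberg over all genes, called under 0.05. Differences are given ± SE. On simulated data for D150L150 against Control (13078 genes), 68% of 2-fold and 85% of 4-fold changes of FPKM + 1 were recovered. In the same simulation 8 unchanged genes were called. Its noise was independent for each gene and lacked variation shared by genes of a library, so these shares may not hold for the members. Marker levels are means of log2(FPKM + 1), and marker sums are summed FPKM.

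Members and gene lists were chosen with earlier results of these data known. All members are named. Of other lists, genes called in the spacer mean and the 4 with the smallest p could be named, also in comparisons that called a member, and for single members the 5 tested genes with the highest Pearson r, without predicted genes. Marker ranges beyond that rule were chosen after values were seen. Marker lists whose differences are not given in the results, none with a gene called in the spacer mean, had median differences of 0.22 (fibroblast), -0.78 (blood endothelial), 0.36 (Langerhans and dendritic), 0.20 (T cell) and 1.48 (mast cell). Alternatives were another pseudocount, no filter, other scalings, a replicate block, fewer groups, marker covariates, voom on recovered fragments and leaving out each library.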

Additional observations from a re-analysis of the deposited data

How the results depend on the processing

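Of 42 member differences 4 were called, and 54 of the 114 alternatives run on those 4 lost the call. For the other 38, 30 of 1095 alternatives gained a call and 7 changed sign. In the spacer mean, with 2 members called, the count was 0 without the filter, with the muscle covariate, with the basal keratinocyte covariate and with voom, 1 with the replicate block and 5 with the neutrophil covariate. In D15L200, with 1 called, it was 2 with a pseudocount of 0.1, quantile scaling, TPM scaling or the neutrophil covariate. It was 0 there without the filter, with the replicate block, with only the groups compared, with the muscle or basal keratinocyte covariate and with voom. In D100L150, with 1 called, it was 2 with the neutrophil covariate and 0 with the same settings that gave 0 in D15L200 and with TPM scaling. In D150L150, with 0 called, it was 2 with the neutrophil covariate. For these counts, and for those with 1 library other than Control 1 left out, the share of all genes called is not given here.

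Leaving out 1 library at a time gave 0 to 4 members in the spacer mean and D15L200, 0 to 2 in D100L150, and 0 to 3 in D150L150 and D15L150. With the basal keratinocyte covariate, Il1a in the spacer mean was 0.27 and Il18 in D100L150 was -0.081. Over fits without 1 library, Il1a ran from -1.11 to 0.42 and Il1rn from -1.12 to 0.15 in the spacer mean, Il18 in D100L150 from -0.017 to 0.66, and in D15L100 Il33 from -0.035 to 0.85 and Il36g from -0.025 to 1.08. The cause was not tested.

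No label says what libraries with the same replicate number share. Their deviations from group means had a median r of 0.02, with a range of -0.66 to 0.53. Of 18 libraries 1 had its best partner under its own number. These values cannot show that such libraries share nothing. With the replicate block Il36b in the spacer mean had an adjusted p of 0.0540 (limma). The median antagonist ratio was 4.66 for Il1rn to Il1a alone and 1.16 for Il36rn to Il36g alone.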

Other observations

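Il1f10, a further gene of the family that lies between Il36rn and Il1rn on chromosome 2 and was not among the 9 members, lay at 0 to 0.119 FPKM in Control and at 0.046 to 1.95 FPKM in the spacer libraries. It did not pass the filter on low values and was not tested.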
